A study of Mus musculus with 128 samples.

Results

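A set of 8 protein-coding genes known from differentiated tissues, Lepr, Serpinb3a, Ttc6, Themis, Nlrc4, Tram2, Fgf7 and Cyp2c29, were followed through single mouse oocytes and embryos with or without maternal Kdm4a. They are 8 of the 41300 genes in the count table. These genes were chosen by their CPM and fold change, which were much lower in Kdm4a-knockout oocytes or 2-cell embryos, so the values of those stages are given below as descriptions, without a test. Each was measured by poly(A) RNA sequencing of 1 oocyte or 1 whole embryo per library, from C57BL/6 mice, with 16 libraries in each of 8 groups: wildtype and knockout oocytes arrested in the second meiotic metaphase (MII), and 2-, 4- and 8-cell embryos at 1.5, 2.5 and 3.5 days after fertilization. The wildtype oocytes carried Kdm4a (m+/p- in the labels) and the knockout oocytes did not (m-/p-). Both kinds of oocyte were fertilized with Kdm4a-knockout sperm, so the embryos called wildtype here had a maternal copy of the gene only and the knockout embryos had none. Embryos of both genotypes were collected together, timed by how far the control embryos had developed, after the zona had been removed. The labels do not say which oocytes shared a mother, so p-values measure the spread between single oocytes or embryos, which may share a parent.

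Kdm4a encodes a histone demethylase that removes methyl groups from lysine 9 and lysine 36 of histone H3. A grown oocyte is nearly silent in transcription and lives on stored RNA. After fertilization that store is cleared while the embryonic genome is switched on, mostly at the 2-cell stage in the mouse. RNA in the MII oocyte was therefore made before meiotic maturation, whereas RNA in the 2-cell embryo can be stored or new.

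One 8-cell knockout library (replicate 4) held 419 counts, with no count of any of the 8 genes, and was left out. The other 127 libraries held between 528377 and 4657857 counts. Kdm4a itself was measured at 10.9 ± 3.05 CPM (SD, n = 16; CPM is a library's counts of the gene scaled to a common total) in wildtype MII oocytes and at 1.27 ± 0.904 CPM in knockout ones, and no library of one genotype overlapped the other. In 2-cell embryos it was at 15.1 ± 4.81 against 2.65 ± 1.83 CPM. Both differences passed the test (edgeR's quasi-likelihood, p-values adjusted over all genes by Benjamini and Hochberg's method; adjusted p = 5.0e-11 and 3.3e-07). By the 4-cell stage Kdm4a was at 4.59 ± 3.58 against 1.76 ± 1.47 CPM and at the 8-cell stage at 1.31 ± 1.16 against 1.99 ± 2.22 CPM, where it was too low for the test. The sources used here do not say which part of the gene the knockout lacks. In profile, 124 of the 127 libraries were most like a group of their own stage. The 8-cell knockout replicate 7 was most like 2-cell knockout embryos (Pearson's r = 0.791 with their mean, 0.236 with its own group). The other two, 4-cell knockout replicate 16 and 8-cell knockout replicate 16, each matched the other's stage by a narrow margin (r = 0.942 against 0.937, and 0.934 against 0.907). Replicate 15 of the MII knockout oocytes had the fewest detected genes of its group (11139, group median 13284), and its correlation with its group mean was 0.875. Results that rest on these libraries are given with and without them.

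The 8 genes lie on 7 chromosomes (mouse build mm10). Their positions came from the count table and overlapped the GENCODE M21 genes of the same name. Lepr, the leptin receptor, spans chr4:101717404-101815352 on the plus strand, with 6635 bases of exon, and its end lies 16321605 bases before the start of Kdm4a on the same chromosome. Serpinb3a (chr1:107045587-107052303, minus strand, 1631 bases of exon) encodes a serine protease inhibitor of the clade B family, and Tram2 (chr1:20996299-21079229, minus strand, 6492 bases) a protein associated with the translocon of the endoplasmic reticulum. Ttc6 (chr12:57564113-57737928, plus strand, 5944 bases) encodes a tetratricopeptide repeat protein. Themis (chr10:28668360-28883815, plus strand, 5630 bases) encodes a signalling protein needed in thymocyte selection. Nlrc4 (chr17:74426295-74459108, minus strand, 3838 bases) encodes an inflammasome receptor subunit of myeloid cells. Fgf7, the keratinocyte growth factor made by mesenchymal cells, spans chr2:126034658-126091185 on the plus strand (3144 bases of exon). Cyp2c29 (chr19:39269405-39330699, plus strand, 2022 bases) encodes a cytochrome P450 of the liver.

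To show how much the start regions differ among genes that were all lower in knockout oocytes and 2-cell embryos, 4 stretches of 250 bases before the RefSeq start are printed, 5′ to 3′ on the gene's own strand, with every CG in capitals. The sequences are from RefSeq's GRCm38.p6 table, in which all 8 genes were found. Lepr and Tram2 are shown as the 2 richest in CG, Themis and Serpinb3a as the 2 starts with the fewest CG among those that match the count table's gene model. Lepr lies at chr4:101717157-101717406 (plus strand), Tram2 at chr1:21079226-21079475 (minus), Themis at chr10:28668110-28668359 (plus) and Serpinb3a at chr1:107052304-107052553 (minus).
Lepr: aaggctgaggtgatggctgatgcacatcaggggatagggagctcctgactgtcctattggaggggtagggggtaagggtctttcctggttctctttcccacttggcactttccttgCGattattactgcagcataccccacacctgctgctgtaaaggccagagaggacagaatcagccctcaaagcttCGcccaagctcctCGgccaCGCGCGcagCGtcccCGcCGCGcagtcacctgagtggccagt
Tram2: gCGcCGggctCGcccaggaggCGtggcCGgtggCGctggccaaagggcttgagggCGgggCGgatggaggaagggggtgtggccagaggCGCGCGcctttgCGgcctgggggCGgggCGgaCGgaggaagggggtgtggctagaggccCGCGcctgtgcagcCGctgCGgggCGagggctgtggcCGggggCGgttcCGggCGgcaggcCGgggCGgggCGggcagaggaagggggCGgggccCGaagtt
Themis: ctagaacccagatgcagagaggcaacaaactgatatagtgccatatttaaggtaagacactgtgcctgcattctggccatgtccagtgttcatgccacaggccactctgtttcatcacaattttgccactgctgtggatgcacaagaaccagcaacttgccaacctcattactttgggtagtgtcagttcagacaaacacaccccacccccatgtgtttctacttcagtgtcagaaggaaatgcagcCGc
Serpinb3a: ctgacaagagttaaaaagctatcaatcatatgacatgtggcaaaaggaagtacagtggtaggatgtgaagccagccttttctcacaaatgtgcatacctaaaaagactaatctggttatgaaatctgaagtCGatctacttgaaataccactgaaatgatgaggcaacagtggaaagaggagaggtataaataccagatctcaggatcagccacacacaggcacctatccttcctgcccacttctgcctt

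The printed stretch held 29 CG in Tram2, 10 in Lepr, 1 in Themis and 1 in Serpinb3a. Over the full RefSeq windows of 300 bases (250 before the start and 50 after it), Tram2 had 37 CG, more than 94.4% of the 32851 windows in the table. Lepr had 18, Fgf7 11, Ttc6 6, Nlrc4 2 and Cyp2c29 2, and Themis and Serpinb3a had 1 each, where the median window had 7. A CG was found in 94.6% of all windows. TATAAA on either strand was found in the windows of Serpinb3a and Cyp2c29 and in 13.6% of all windows. CCAAT was found in those of Lepr and Fgf7 (37.4% of all), and GGATTA in those of Nlrc4 and Cyp2c29 (7.06% of all). None of these motifs contains another. Lepr and Themis each have a second RefSeq start, counted separately, with 13 and 2 CG. The RefSeq start of Cyp2c29 lies 17680 bases inside the gene model of the count table. A match describes letters in the window and no binding was measured.

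All 8 genes were present in every wildtype oocyte and every wildtype 2-cell embryo, and each was lower in the knockout groups of both stages. In the fit, the knockout level was between 21.6% (Lepr) and 52.7% (Cyp2c29) of wildtype in MII oocytes, and between 16.3% (Themis) and 57.9% (Fgf7) in 2-cell embryos. The members' median difference, knockout minus wildtype, was -1.72 on the log2 scale at MII and -1.77 at the 2-cell stage, beside 0.02 and -0.01 over all genes tested. All 8 passed the low-count filter at both stages. Across all genes, 6.69% of 7680 were called lower at MII and 10% of 8728 at the 2-cell stage. Because these contrasts chose the genes, nothing further is read from that. CPM is a share of each library's RNA, and in whole embryos fewer cells with a transcript and less of it per cell cannot be told apart.

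**Figure D1:**
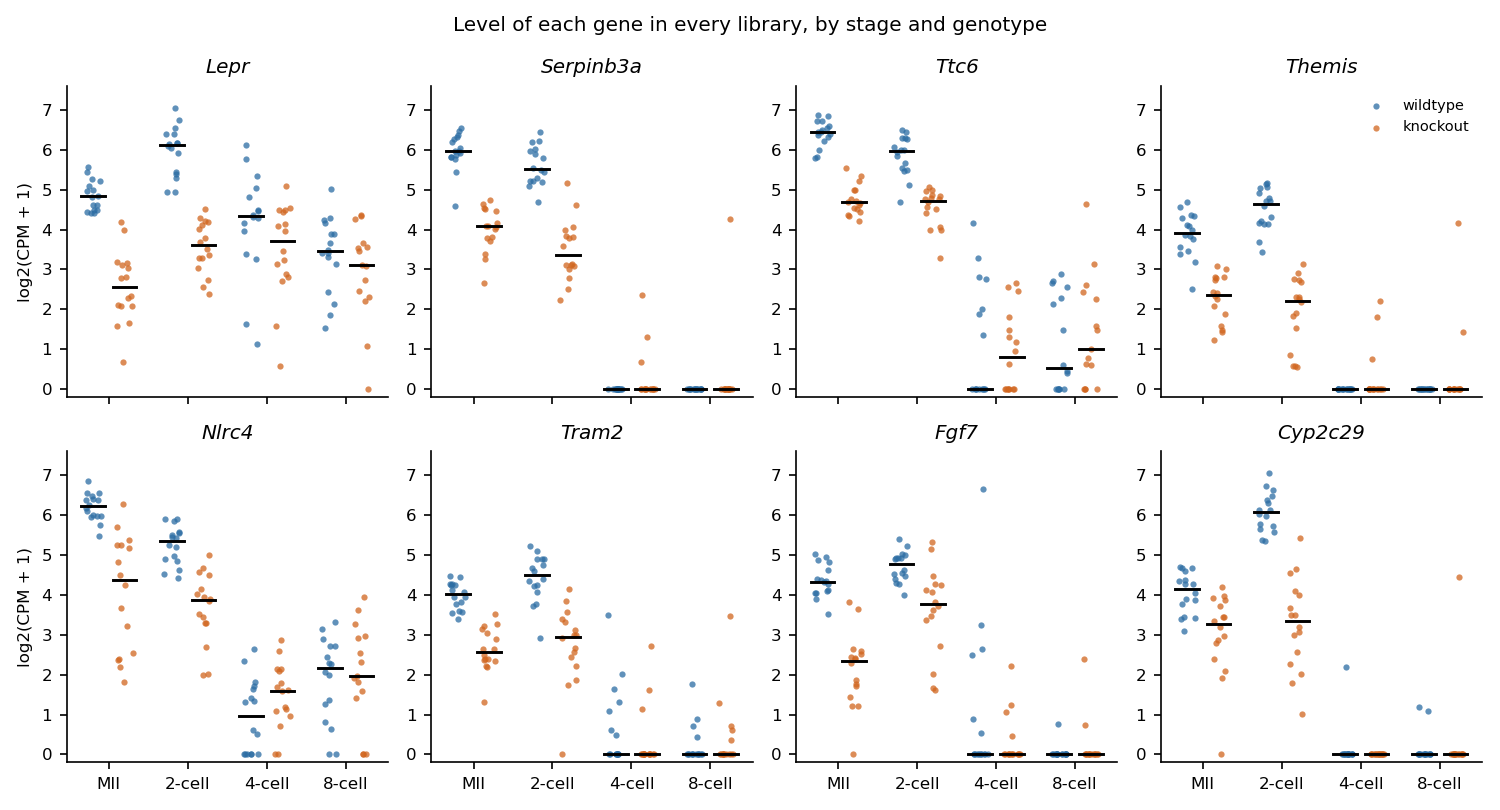
Each panel plots 1 gene; the vertical axis is log2(CPM + 1) and the horizontal axis the stage, with 1 point per library, wildtype in blue and knockout in orange, and black bars at group medians (n = 16 per group, 15 for 8-cell knockout). Knockout medians sit below wildtype ones in MII oocytes and 2-cell embryos, with overlap in most panels, and at the later stages Lepr has the highest medians.

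Lepr, the receptor for the fat-derived hormone leptin, ranged from 20.4 to 46.6 CPM in wildtype MII oocytes (median 27.5) and from 0.596 to 17.2 CPM in knockout ones (median 4.99). In 2-cell embryos it ranged from 29.6 to 132 CPM in wildtype (median 68.4), and the knockout range was 4.22 to 21.8 CPM (median 11.2). The genotypes did not overlap at either stage. Ttc6 did not overlap in MII oocytes, at 55.0 to 116 CPM in wildtype (median 85.9) against 17.5 to 45.9 CPM in knockout (median 24.7). Its 2-cell ranges met, at 24.7 to 89.4 CPM (median 61.4) against 8.69 to 32.8 CPM (median 25.5). Themis, a T-cell gene, was the reverse case. At MII its ranges met, at 4.67 to 24.7 CPM (median 14.2) against 1.33 to 7.56 CPM (median 4.15), while in 2-cell embryos they were apart, at 9.74 to 35.0 CPM (median 24.1) against 0.469 to 7.86 CPM (median 3.66). Lepr and Ttc6 at MII, and Lepr and Themis at the 2-cell stage, were thus the pairs of genes with no overlap, where 0.26% and 0.172% of all genes tested had every knockout library below every wildtype one.

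Serpinb3a was the most abundant of the 8 per kilobase of exon in MII oocytes. Wildtype MII oocytes held 23.0 to 92.8 CPM (median 61.5) and knockout ones 5.36 to 25.6 CPM (median 15.9), and 2-cell embryos 24.7 to 87.0 CPM (median 44.7) against 3.71 to 35.2 CPM (median 9.34). All but 2 knockout oocytes and all but 1 knockout 2-cell embryo lay below the lowest wildtype value: 14 of 16 and 15 of 16. Tram2 behaved in a like way at MII, with 15 of 16 knockout oocytes below the wildtype minimum, at 9.61 to 21.0 CPM (median 15.2) against 1.49 to 10.5 CPM (median 4.94). In 2-cell embryos Tram2 was at 6.51 to 36.5 CPM (median 21.7) against 0 to 16.7 CPM (median 6.74), with 7 of 16 below the minimum. That minimum is wildtype replicate 5 alone, and without it the count is 14 of 16. The knockout value of 0 was in replicate 13, a library of 528377 counts. Leaving out the lowest wildtype library also took Ttc6 from 7 to 16 of 16 in 2-cell embryos (without replicate 3) and Themis from 10 to 16 of 16 at MII (without replicate 7). For Serpinb3a and Tram2 the overlap came from the edges of the 2 ranges, since every knockout library was below the wildtype median at both stages.

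Nlrc4 differed most between single knockout oocytes. In wildtype MII oocytes it was at 43.3 to 114 CPM (median 73.6), and in knockout ones at 2.52 to 76.5 CPM (median 19.8), an SD of 21.2 around a mean of 24.0. The lowest 5 knockout oocytes lay between 2.52 and 4.79 CPM, whereas replicate 4, at 76.5 CPM, and replicate 13, at 51.1 CPM, lay within the wildtype range. By the 2-cell stage the spread was narrower, at 20.6 to 58.7 CPM (median 39.6) against 2.97 to 30.8 CPM (median 13.7). Fgf7 was at 10.5 to 31.6 CPM (median 19.2) in wildtype MII oocytes and at 0 to 13.04 CPM (median 4.08) in knockout ones. In 2-cell embryos the highest knockout value of Fgf7 came close to the highest wildtype one, at 14.9 to 41.6 CPM (median 26.3) against 2.07 to 39.3 CPM (median 12.7), with 9 of 16 knockout embryos below the wildtype minimum. Cyp2c29 was the opposite: at MII it was at 7.57 to 24.8 CPM (median 16.9) against 0 to 17.3 CPM (median 8.65), with 7 of 16 below the minimum, and in 2-cell embryos at 39.7 to 131 CPM (median 66.2) against 1.03 to 42.4 CPM (median 9.20), with 15 of 16 below it.

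The wildtype course from oocyte to 2-cell embryo divided the genes. Mean CPM was higher in 2-cell embryos than in MII oocytes for Cyp2c29 (70.7 ± 25.6 against 16.6 ± 5.92, a ratio of 4.27), Lepr (67.6 ± 28.2 against 29.0 ± 8.33, a ratio of 2.33), Themis (ratio 1.59), Tram2 (1.44) and Fgf7 (1.29). It was lower for Serpinb3a (ratio 0.788), Ttc6 (0.693) and Nlrc4 (38.9 ± 12.7 against 74.9 ± 17.9, a ratio of 0.519). Of the 8, Cyp2c29 alone had every wildtype 2-cell embryo above every wildtype oocyte. In knockout libraries the same ratio was 1.37 for Cyp2c29 and 1.96 for Lepr, and 0.827 for Themis. Fgf7 had the highest knockout ratio, 3.41, from 4.27 ± 3.51 to 14.6 ± 10.6 CPM. These ratios set stages of different total RNA side by side and were not tested.

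Per kilobase of exon, the scale on which genes can be ranked, the wildtype MII order was Serpinb3a (39.3 ± 10.7 CPM per kb, SD, n = 16), Nlrc4 (19.5 ± 4.66), Ttc6 (14.5 ± 3.14), Cyp2c29 (8.20 ± 2.93), Fgf7 (6.47 ± 1.96), Lepr (4.37 ± 1.26), Themis (2.60 ± 0.966) and Tram2 (2.35 ± 0.565). Serpinb3a stood above its neighbour by more than their SDs. Cyp2c29 and Fgf7, and Themis and Tram2, differed by less than theirs. In wildtype 2-cell embryos Cyp2c29 (35.0 ± 12.6 CPM per kb) and Serpinb3a (30.9 ± 10.7) led and could not be separated by their spread, and neither could Lepr (10.2 ± 4.25), Nlrc4 (10.1 ± 3.30), Ttc6 (10.1 ± 3.16) and Fgf7 (8.33 ± 2.29). Themis (4.12 ± 1.42) and Tram2 (3.39 ± 1.26) were again lowest. In knockout oocytes Serpinb3a was again first (9.82 ± 3.55) and Themis last (0.749 ± 0.353).

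**Figure D2:**
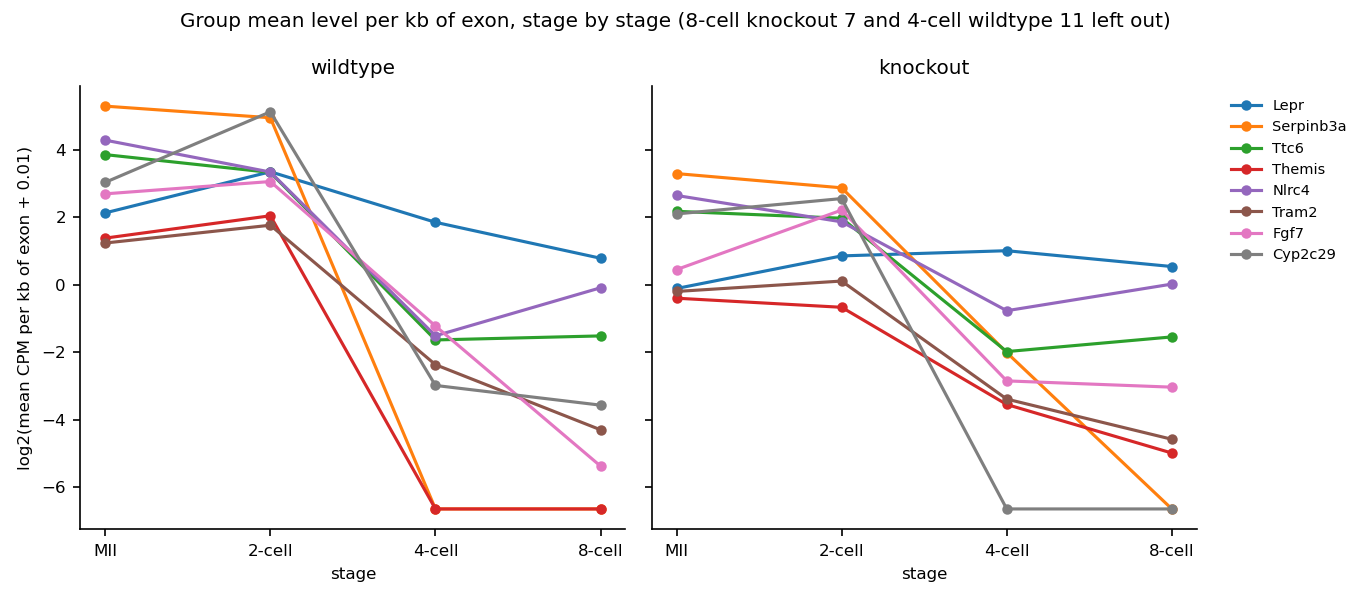
The vertical axis is log2 of the group mean CPM per kilobase of exon plus 0.01, and the horizontal axis the stage, for wildtype (left) and knockout (right), with 1 line per gene; 8-cell knockout replicate 7 and 4-cell wildtype replicate 11 are left out of the means. Serpinb3a is highest at MII in both genotypes (39.3 and 9.82), and Lepr is the highest line at the 4- and 8-cell stages.

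Seen library by library, most of the 8 genes were low at once in a knockout library. Summed over the 8 genes, wildtype MII oocytes held 253 to 382 CPM (median 331) and knockout ones 43.2 to 174 CPM (median 96.4). For 2-cell embryos the sums were 271 to 461 CPM (median 349) and 51.6 to 154 CPM (median 90.1). A single knockout oocyte had between 5 and 8 of the genes below the lowest wildtype oocyte (median 7), with all 8 below it in 3 oocytes, replicate 15 among them. A single knockout 2-cell embryo had between 4 and 8 (median 6), with all 8 in 2 embryos. Among those 2 was replicate 13, the library with the fewest counts of those used (528377, group median 2077383). In it 3 counts would have been 5.68 CPM. The genes were chosen for low levels in these libraries, so the counts are descriptions, and a like count over all genes was not taken. The highest sum among knockout oocytes, 174 CPM, was in replicate 4, which was also the highest of its group for Lepr (17.2 CPM), Nlrc4 (76.5 CPM) and Fgf7 (13.04 CPM). The lowest sum, 43.2 CPM, was in replicate 15, whose summed level of 8 oocyte markers was 2648 CPM where the group median was 14884. Without replicate 15 the knockout means at MII were between 21.1% (Fgf7) and 55.7% (Cyp2c29) of wildtype, against 21.0% and 52.2% with it.

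By the 4-cell stage 7 of the 8 genes were below the low-count filter in both genotypes, and Lepr alone remained testable. No count of Serpinb3a or Themis was found in any of the 16 wildtype 4-cell embryos or the 16 wildtype 8-cell embryos, where 3 counts would have been 1.17 to 1.77 CPM and 0.971 to 1.95 CPM. Cyp2c29 was found in 1 of 16 wildtype and 0 of 16 knockout 4-cell embryos. Mean levels in wildtype 4-cell embryos were 2.80 ± 4.67 CPM for Ttc6, 1.37 ± 1.60 CPM for Nlrc4 and 1.19 ± 2.61 CPM for Tram2. In knockout 4-cell embryos they were 1.45 ± 1.87, 2.22 ± 1.75 and 0.555 ± 1.47 CPM, with overlapping ranges. These 7 genes were not tested, and what fits without the filter gave is stated with the alternatives.

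A few 4-cell libraries departed from that. Wildtype replicate 11 held 99.9 CPM of Fgf7 (177 counts), more than any other library of the series, while the other 15 lay between 0 and 8.56 CPM. The mean of Fgf7 in wildtype 4-cell embryos was 7.48 CPM with this embryo and 1.32 ± 2.64 CPM without it, beside 0.405 ± 0.959 CPM in knockout embryos. The same embryo had the highest Ttc6 of its group (16.9 CPM, others up to 8.80 CPM). Its summed level of 6 genes of the 2-cell embryo was 580 CPM, where the next wildtype 4-cell embryo had 46.7 CPM, and their part in the Fgf7 value was not tested. Serpinb3a was found in 3 of 16 knockout 4-cell embryos (0.605, 1.49 and 4.12 CPM) and Themis in 3 (0.687, 2.49 and 3.63 CPM). Replicates 9 and 16 held both. The summed oocyte markers of knockout 4-cell embryos were 71.3 to 765 CPM (median 124), with the highest in replicate 15, where Serpinb3a was highest too; in wildtype they were 15.4 to 198 CPM (median 60.1). Their part was not tested.

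Lepr was the one member whose level could be tested at the later stages. In wildtype 4-cell embryos it ranged from 1.18 to 68.1 CPM (median 19.3, mean 23.3 ± 17.9, n = 16) and in knockout ones from 0.486 to 33.3 CPM (median 12.2, mean 13.3 ± 8.97, n = 16). The ranges overlapped up to the highest knockout embryo, wildtype replicates 2, 3 and 4 lay above it, and 11 of 16 knockout embryos were below the wildtype median. The difference was -0.80 on the log2 scale (SE 0.40) and missed the threshold in edgeR's quasi-likelihood test (adjusted p = 0.17). Of the 8 genes only Lepr was tested, and it was not called lower, where 7.46% of 7478 genes tested were. In 8-cell embryos Lepr ranged from 1.87 to 31.3 CPM in wildtype (median 9.98, mean 11.4 ± 7.46, n = 16) and from 0 to 19.5 CPM in knockout (median 7.58, mean 8.95 ± 6.29, n = 15). The difference was -0.38 (SE 0.39, adjusted p = 0.57 by edgeR). Lepr was again the only member tested and was not called lower, where 3.02% of 7219 genes tested were. Its unadjusted p was above 0.05 at both stages (p = 0.054 and 0.34 by edgeR). DESeq2 and limma, which also tested Lepr alone, did not call it lower. Without 8-cell knockout replicate 7, in which Lepr was at 0, the difference was -0.27 (SE 0.35, adjusted p = 0.66 by edgeR) and 5.42% of 7301 genes were called lower.

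The 4-cell difference in Lepr was also taken within the 2 ranges of replicate numbers. Among replicates 1 to 8 wildtype embryos were at 32.7 ± 19.1 CPM (n = 8) and knockout embryos at 11.9 ± 7.02 CPM (n = 8), a log2 difference of -1.49 (adjusted p = 0.059 by edgeR). Among replicates 9 to 16 they were at 13.95 ± 11.02 and 14.7 ± 10.9 CPM, a difference of 0.11 (adjusted p = 0.94 by edgeR). The term for the change between the 2 ranges, tested after these values were seen, was 1.60 (SE 0.77, edgeR p = 0.046 before and 0.82 after adjustment over all genes). For that term 0 of 7478 genes were called. The labels do not say what a replicate number stands for. At the 8-cell stage the ranges gave -0.42 and -0.27.

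**Figure D3:**
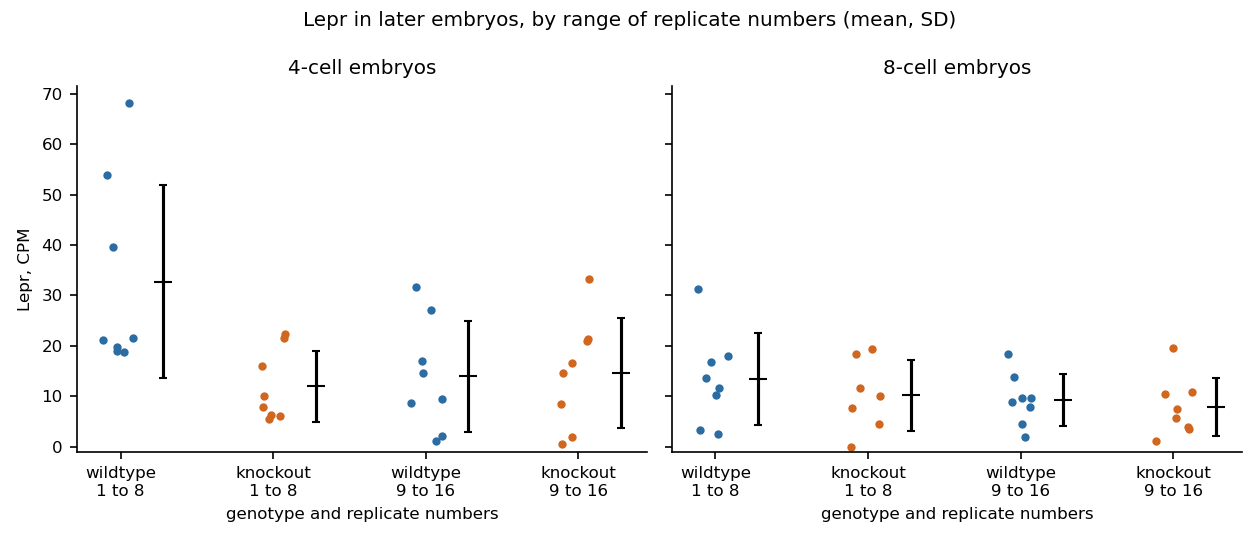
The vertical axis is Lepr in CPM and the horizontal axis genotype and range of replicate numbers, for 4-cell (left) and 8-cell (right) embryos; points are single embryos, and the bars beside them are the mean and SD (n = 8 per column, 7 for 8-cell knockout 1 to 8). Wildtype 4-cell embryos 1 to 8 are the highest column, with a mean of 32.7 CPM.

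From the 4- to the 8-cell stage Lepr differed by -0.90 in wildtype embryos on the log2 scale (SE 0.40, adjusted p = 0.073 by edgeR). In knockout embryos the difference was -0.48 (SE 0.42, adjusted p = 0.43 by edgeR). The genotype difference changed by 0.42 between the stages (SE 0.58, adjusted p = 0.81 by edgeR). Lepr was therefore not called for the wildtype change, where 20.6% of 8822 genes passed the adjusted threshold with an absolute log2 change of at least 1. It was not called for the change in genotype difference either, where 2.73% of genes passed. Before adjustment the p of the wildtype change of Lepr was 0.030 by edgeR, but its size was below a log2 change of 1. The other 7 genes were not tested here. The mean order for Lepr over all 8 groups was wildtype 2-cell (67.6 CPM), wildtype MII (29.0), wildtype 4-cell (23.3), knockout 4-cell (13.3), knockout 2-cell (11.9), wildtype 8-cell (11.4), knockout 8-cell (8.95) and knockout MII (6.08). From the wildtype MII oocytes downward neighbours in that order differed by less than the larger of their SDs.

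At the 8-cell stage Nlrc4 was the next most abundant of the 8, at 3.57 ± 2.79 CPM in wildtype (14 of 16 embryos) and 4.56 ± 4.28 CPM in knockout (12 of 15 embryos). Ttc6 was at 2.02 ± 2.42 against 3.45 ± 6.16 CPM. Much of the knockout mean of several genes came from replicate 7. This library held 18.3 CPM of Serpinb3a and 20.7 CPM of Cyp2c29, neither of which had a count in the other 14 knockout embryos. It held 16.8 CPM of Themis, 24.1 of Ttc6, 14.4 of Nlrc4 and 10.1 of Tram2, and none of Lepr or Fgf7. Without it the knockout means were 1.98 ± 2.41 CPM for Ttc6, 3.86 ± 3.41 CPM for Nlrc4, 0.207 ± 0.415 CPM for Tram2 and 0.121 ± 0.454 CPM for Themis. Serpinb3a, Ttc6, Nlrc4, Tram2 and Cyp2c29 lay within the range of knockout 2-cell embryos in that library, and Themis lay above it (up to 7.86 CPM) and within the range of wildtype 2-cell embryos.

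Other measures of the same library also stood apart. It had 9638 genes detected, where the group median was 13181, and 18.9% of its counts were mitochondrial. Zp2 was at 236 CPM, where the other 8-cell knockout embryos reached 8.38 CPM, and Bmp15, an oocyte growth factor, at 1735 CPM against at most 8.27 CPM. Tead4, a trophectoderm regulator present at 22.3 to 74.9 CPM in the other 14, was at 0. Of the other oocyte markers, Zp3 was at 1.44 CPM, below the other embryos (from 2.17 CPM), and Mos at 0. Of 6 genes of the 2-cell embryo, Zscan4c, Zscan4f and Usp17lc were at 0, as was the median of the other embryos, and Tcstv1 was at 19.7 CPM (others up to 16.7 CPM). Its content therefore goes against its stage label, and what set it apart was not tested.

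**Figure D4:**
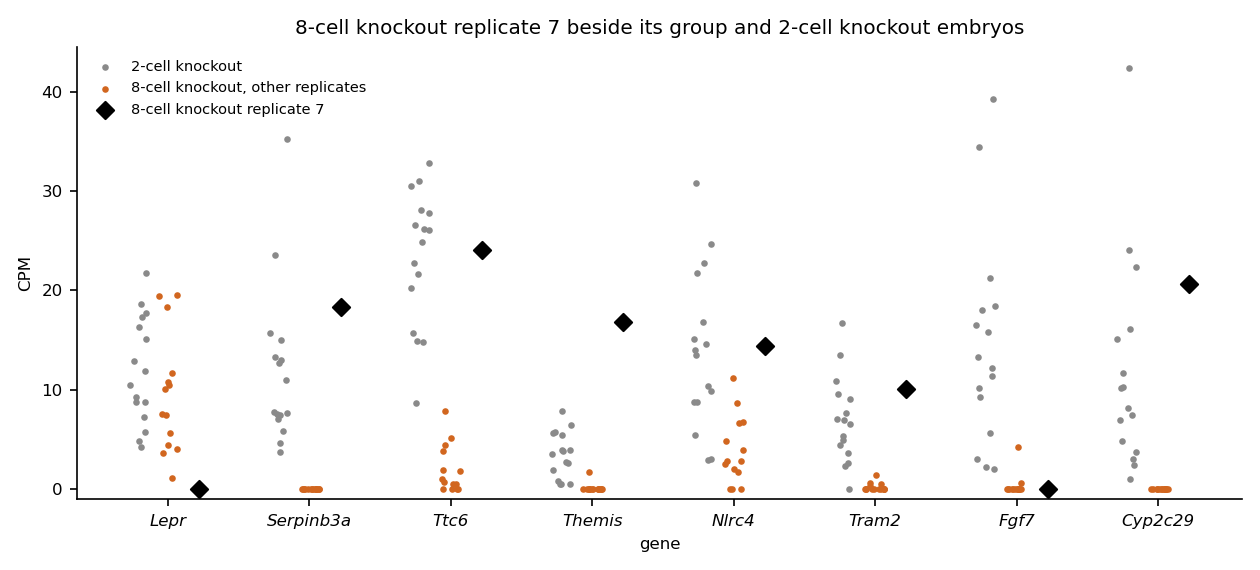
The vertical axis is CPM and the horizontal axis the gene; grey points are the 16 knockout 2-cell embryos, orange points the 14 other knockout 8-cell embryos, and the black diamond is 8-cell knockout replicate 7. In 6 of the 8 genes the diamond lies above all orange points, and for Themis (16.8 CPM) above the grey points too.

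The genes next to the 8 members were looked at for the same course. Of the 32 nearest genes, 2 on each side of a member, 9 were tested at MII and 10 at the 2-cell stage, and 18 and 16 of the 32 were below 1 CPM in wildtype. At each stage 1 was called lower and none higher, where 6.69% and 10% of all genes were called lower. Both times it was RP23-149D11.2, a clone-named gene on the minus strand 74668 bases after the end of Lepr. It was at 52.0 to 254 CPM in wildtype MII oocytes (median 115) and 0 to 99.5 CPM in knockout ones (median 22.9), and at 79.8 to 316 CPM (median 159) against 10.5 to 58.4 CPM (median 26.3) in 2-cell embryos. The log2 differences were -1.99 (SE 0.36, adjusted p = 0.000335 by edgeR) and -2.69 (SE 0.21, adjusted p = 1.7e-11 by edgeR). At the later stages it was at 244 ± 131 against 196 ± 89.4 CPM and at 312 ± 160 against 304 ± 165 CPM. RP23-27H11.1, the nearest gene after Lepr at 19617 bases, was at 155 against 75.2 CPM in 2-cell embryos and did not pass (log2 difference -0.98, SE 0.38, adjusted p = 0.073 by edgeR). Leprot, on the other side of Lepr, was at 114 against 111 CPM at MII (log2 difference -0.04, SE 0.26). Among neighbours of Nlrc4, the membrane-traffic gene Yipf4 was at 376 against 352 CPM and the microtubule-severing gene Spast at 170 against 175 CPM. Cops2, a signalosome subunit near Fgf7, was at 241 against 231 CPM. None of these passed the test at MII.

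Close relatives of 2 members bear on how their reads were counted. Serpinb3b and Serpinb3d, paralogues beside Serpinb3a, were at 1.282 against 0.217 and 0.611 against 0.0628 CPM at MII. Cyp2c39 was at 1.97 against 0.486 CPM in 2-cell embryos. Of the non-zero deposited values, 58.8% for Serpinb3a and 89.6% for Cyp2c29 were not whole numbers, against 2.90% for Themis, and how reads shared with near-identical copies were divided is not stated, so the levels of Serpinb3a and Cyp2c29 are uncertain to that extent. For Lepr, Ttc6 and Fgf7 the share was 46.0%, 47.5% and 44.7%, and how these values were divided is not stated either, so the same limit holds for their levels. Exons of Ttc6 overlap 128 bases of RP23-20M6.2, a gene on the other strand with 3.85 CPM in wildtype MII oocytes, and reads there could not be assigned to a strand from the sources used here.

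Most markers of the tissues for which the 8 genes are best known were below 1 CPM in MII oocytes. In wildtype MII oocytes all 8 T-cell markers were below 1 CPM and 6 at 0, including Cd3e and Lck. All 8 hepatocyte markers were below 1 CPM and 6 at 0, including albumin (Alb). Of 6 keratinocyte markers 5 were at 0, Krt5 and Krt14 among them, and Krt10 was at 16.2 CPM. All 6 macrophage markers were below 1 CPM. Of 11 markers of cumulus and granulosa cells, 9 were below 1 CPM and 5 at 0, and the exceptions were Cyp19a1 (88.2 CPM in wildtype, 97.0 in knockout) and Nr5a2 (7.43 and 7.77 CPM). The summed T-cell markers were at 0 to 2.55 CPM against 0 to 2.37 CPM in wildtype and knockout oocytes, and the hepatocyte sums at 0 to 1.09 and 0 to 1.31 CPM. The summed oocyte markers were at 10395 to 14056 CPM against 2648 to 16527 CPM. Of the T-cell markers, 6 of 8 were below 1 CPM in wildtype 2-cell and 4 of 8 in wildtype 4-cell embryos, where Lck was at 13.7 CPM. The sum of the 6 fibroblast markers, cells known to make Fgf7, ranged over 1.64 to 11.7 CPM among wildtype MII oocytes and over 0 to 21.1 CPM among knockout ones, with Col1a2, Col3a1 and Lum at 0 in both and Dcn at 5.22 against 6.84 CPM. In 2-cell embryos the fibroblast sums were 0.484 to 28.04 and 0 to 11.4 CPM, with Pdgfra at 5.52 against 2.13 CPM, and their part in the Fgf7 values was not tested.

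Genes that work with each member were listed separately. The lists were drawn up with earlier results known, exclude the members themselves, and are given as counts of genes called in either direction. Over all genes tested, 12% were called at MII, 17.3% at the 2-cell stage, 16.4% at the 4-cell and 11.6% at the 8-cell stage. Of 13 genes of leptin signalling, 8 were tested at MII with none called. At each later stage 6 or 7 were tested and 1 was called higher, which at the 2-cell stage was Ptpn11, a phosphatase of receptor signalling (87.1 against 112 CPM, log2 difference 0.42, SE 0.10, adjusted p = 0.0057 by edgeR). At the 4-cell and 8-cell stages it was Jak2, the kinase bound to the leptin receptor. Jak2 was at 257 against 253 CPM in MII oocytes and 500.2 against 465 CPM in 2-cell embryos, with no call, and at 49.3 against 192 CPM in 4-cell embryos (log2 difference 1.97, SE 0.28, adjusted p = 1.0e-05 by edgeR). In 8-cell embryos it was at 11.98 against 232 CPM, a mean to which knockout replicate 7 gave 2921 CPM. The other 14 knockout embryos were at 39.5 ± 23.1 CPM, and without replicate 7 the log2 difference was 1.68 (SE 0.30, adjusted p = 0.0005 by edgeR), against 5.14 with it. Of 26 clade B serpins 5 were tested at MII and 5 in 2-cell embryos, with none called. Serpinb12 had the highest mean of them in any group. It was at 11.3 against 10.01 CPM at MII and at 73.3 against 69.7 CPM in 2-cell embryos. At MII Serpinb1c was higher, at 56.0 against 57.7 CPM.

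Of 21 genes of FGF signalling, none of 6 was called at MII, and 3 of 10 were called at the 2-cell stage. Spry4, a feedback inhibitor, was higher in knockout 2-cell embryos (204 against 279 CPM, log2 difference 0.50, SE 0.11), as was the ligand Fgf10 (20.9 against 31.2 CPM, 0.62, SE 0.16). The phosphatase Dusp6 was lower (16.8 against 7.07 CPM, -1.31, SE 0.47). None of 8 was called at either later stage. Of 16 inflammasome genes 3 were tested at MII, where Casp8 was lower (62.0 against 33.2 CPM, -0.83, SE 0.23, adjusted p = 0.013 by edgeR). Casp8 was not called in 2-cell embryos (62.6 against 75.8 CPM), where the call was Naip1, a sensor that partners Nlrc4 (31.3 against 49.0 CPM, 0.67, SE 0.18). Of 18 genes of T-cell receptor signalling, 2 or 3 were tested at each stage and the one call was Ptpn11 again, which stands on both lists. Of 15 genes, Por and the Cyp2c genes other than Cyp2c29, only Cyp2c44 was tested in 4-cell embryos. It was higher in knockout there (2.08 against 14.6 CPM, 2.79, SE 0.60, adjusted p = 0.0015 by edgeR). It was not called in 2-cell embryos, where its difference had the other sign (9.16 against 4.38 CPM, -1.03, SE 0.40, adjusted p = 0.066 by edgeR), or in 8-cell embryos (8.54 against 13.1 CPM, 0.61, SE 0.40).

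Of 25 genes, of the translocon and signal sequences with Atp2a2, Col1a1 and Col1a2, 17 to 21 were tested at each stage. Calls were 1 lower and 1 higher at MII, 2 lower at the 2-cell, 1 lower and 2 higher at the 4-cell, and 2 lower and 1 higher at the 8-cell stage. In 4-cell knockout embryos Sec63 was at 113 CPM against 56.4 in wildtype (log2 difference 0.997, SE 0.20) and Sec61a2 at 42.8 against 25.6 (0.74, SE 0.26). Sec61a1 was lower (40.8 against 62.5 CPM, -0.63, SE 0.21), and Sec61b (0.44, SE 0.22) and Sec61g (-0.10, SE 0.22) were not called. Of 42 other Ttc genes, 2 of 19 were called higher at MII and 3 of 22 at the 2-cell stage. Those 3 were Ttc27 (39.8 against 53.1 CPM), Ttc21b (6.91 against 11.5 CPM), a cilium gene, and Ttc23 (28.5 against 36.2 CPM). At the 4-cell stage 2 of 14 were lower, and at the 8-cell stage 1 of 15 was higher with replicate 7 and none without it. The medians of the 8 lists lay between -0.14 and 0.17 at MII. They lay between -1.03 and 0.42 at the 2-cell, -0.81 and 2.79 at the 4-cell and -0.79 and 0.61 at the 8-cell stage. The lists at these ends had 1 to 3 genes tested.

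The likeness of courses was measured by Pearson's r of log2(CPM + 1) over the 127 libraries, against 9590 genes whose mean reached 5 CPM in some group. These values describe points that share stage, genotype and library. Serpinb3a was most like Ldb2 (r = 0.956), a LIM-domain cofactor at 20.9 against 12.3 CPM in wildtype and knockout MII oocytes and 0 in wildtype 4-cell embryos. Olfr1300-ps1 (0.955) and Cpb1 (0.944) came next. Themis, Nlrc4 and Cyp2c29 were each most like Serpinb3a (r = 0.927, 0.855 and 0.917). Tram2 was most like Cyp2c29 (0.908), and Ttc6 like Olfr1300-ps1 (0.917) with Serpinb3a next (0.911). Fgf7 was most like Ednrb (0.866), an endothelin receptor at 8.95 against 7.69 CPM at MII, so its nearest course showed little of the knockout difference. Lepr stood apart from the other 7, with r between 0.349 (Nlrc4) and 0.487 (Fgf7). Its nearest genes were Tmem92 (0.660), Iqck (0.629) and Kdm4a itself (0.610). Tmem92 was at 29.9 against 12.7 CPM at MII and 99.3 against 29.7 CPM in 2-cell embryos, and 20.5 against 13.1 CPM in 4-cell embryos.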

How the data were processed

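RNA from single mouse oocytes and embryos was amplified and sequenced. Per the submitters' processing notes, reads were processed with Trimmomatic 0.32, STAR 2.5.1a and featureCounts 1.5.1 on mm10. The labels name a stranded SMART-Seq kit for some samples and another SMART-Seq kit for others. No comparison here took the kit into account, and its part in the values was not tested. No source used here gives the strand option of featureCounts. The authors deposited 1 table of estimated counts per gene for 128 libraries, of which 30.6% of non-zero values were not whole; they were rounded here. CPM is the rounded count over the library total, and CPM per kb divides by the table's exon length. Libraries below 100000 counts were left out (1). Genotypes were compared within each stage with edgeR 4.0.16 (R 4.3.3): TMM scaling, the default low-count filter, the robust quasi-likelihood test, and Benjamini-Hochberg adjustment over all genes, with 0.05 as the threshold. The change between the 4- and 8-cell stages was fitted over those 4 groups. DESeq2 1.42.0 and limma 3.58.1 gave alternatives. The fit was run on simulated counts of the 4-cell contrast, with changes set only in genes more abundant than the 8 members were there. It does not show how well changes at the members' levels are found.

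The genes, the lists around them and the tests were chosen with earlier results of these data known. Besides the 8 genes and Kdm4a, those named are, per list, up to 3 called genes of smallest p, taken where the list had most calls (or the most abundant gene), the 2 nearest genes on each side, overlapping genes, and the 3 most alike. Other genes named were chosen after their values were seen, as were the replicate 7 and 11 comparisons, the counts without the lowest wildtype library and the test of replicate ranges. Floors cover counting error only, whereas the SDs and SEs also hold the spread between libraries. Reads without molecular identifiers are not independent molecules.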

Additional observations from a re-analysis of the deposited data

How the results depend on the processing

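All 624 alternative values of the MII and 2-cell differences of the 8 genes stayed below 0 and moved by less than 1 SD between single libraries. They came from another scaling, DESeq2, no low-count filter, depth as a covariate, the replicate block, ranges of replicates and each library left out. Not among them were limma, the stricter filter and the fit of all 8 groups. These contrasts chose the genes, so the 624 values are a description only. In 4-cell embryos no member was called lower by the settings that tested Lepr alone. With no low-count filter 2 genes were (Fgf7 and Cyp2c29), and with all 8 groups in 1 fit 1 was (Fgf7). Both settings test genes near 0 counts, and both also called Serpinb3a and Themis higher there. For the wildtype change from the 4- to the 8-cell stage 1 gene (Fgf7) was called with no filter and 3 (Fgf7, Tram2 and Nlrc4) with all groups in 1 fit, and for the change in genotype difference 2 (Fgf7 and Cyp2c29) in each. The 4-cell Fgf7 counts include the 177 of wildtype replicate 11. In 8-cell embryos no setting called a member lower, and both of these settings called Serpinb3a, Themis and Cyp2c29 higher, genes with counts in knockout replicate 7. The stricter filter left no member to test at the 8-cell stage. For Lepr, leaving out 1 library at a time gave -0.96 to -0.61 at the 4-cell stage (adjusted p 0.10 to 0.33) and -0.51 to -0.20 at the 8-cell stage (adjusted p 0.44 to 0.79), and the one value on the other side of 0 was 0.11 in 4-cell replicates 9 to 16; the cause was not tested. The wildtype change of Lepr had an adjusted p of 0.043 by DESeq2 and 0.024 with all groups in 1 fit, below a log2 change of 1 in both. The replicate numbers pair nothing by the labels, and same-numbered 4-cell libraries deviated together with r above 0.1 in 3 of 16 pairs (1 matched its own number best). With the replicate block 0 members were called lower at either later stage, Lepr differed by -0.78 (adjusted p = 0.32) and -0.42 (adjusted p = 0.62), and calls over all genes went from 218 lower and 617 higher to 51 and 64 at the 8-cell stage.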
